A study of Mus musculus with 9 samples.

Results

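Hand1, Hand2, Foxf1, Gata6, Msx1, Msx2, Kdr, Tal1, Lmo2 and Isl1 encode regulators of the mesoderm that leaves the primitive streak to form the lateral plate, the blood and endothelium, and the extraembryonic tissues. They were taken by symbol, and all 10 were found among the 24736 genes of the expression table. Their RNA was measured in 9 cultures of mouse embryonic stem cells differentiated to caudal epiblast-like cells (CEpiLCs), the in vitro equivalent of the trunk-forming posterior epiblast. Each of 3 genotypes had 3 biological replicates: wild-type cells (WT), cells without functional Cdx1, Cdx2 and Cdx4 genes (CdxKO) and cells mutant for T, also named Bra (T/BraKO). The medium of all cultures held 10 ng per ml bFGF and 5 uM LGK974, an inhibitor of WNT secretion. The GSK3 inhibitor CHIR99021 was present for the last of the 3 days, and RNA was taken at 72 h. The labels name no clone, so a property of the cell line used for a genotype cannot be told apart from its mutation.

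In the gastrulating embryo, cells that leave the streak early become extraembryonic, cardiac and lateral plate mesoderm, and cells that leave later become paraxial mesoderm. BMP signals favour the first group of fates, in which HAND and MSX factors are well-known BMP-responsive genes. Blood and endothelium share a progenitor marked by KDR, the main VEGF receptor. TAL1 and LMO2 act there in one complex with GATA factors and a bridging LDB1 protein. T and the CDX factors are transcription factors of the streak and caudal epiblast.

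Libraries held 25124337 to 34705355 expected counts, and the ribosomal gene Rn45s took 0.343% to 4.21% of them. T fell in T/BraKO (log2 fold change -2.42, adjusted p 7.83e-10, DESeq2), and its transcript remained at 2295 ± 563 normalised counts (SD, n = 3). Cdx1, Cdx2 and Cdx4 all fell in CdxKO, with Cdx4 at 1 or 2 counts in each CdxKO library. Transcripts of the other Cdx genes remained: Cdx1 averaged 272 normalised counts in CdxKO and 536 in WT, and Cdx2 1031 and 4199. Over 4 Y-linked genes, no CdxKO library exceeded 3 counts, whereas every WT library had at least 40 and every T/BraKO library at least 45. Its part in the results below was not tested.

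Values are normalised counts (expected counts divided by the DESeq2 size factor of the library), and a gene was called when the Benjamini-Hochberg adjusted p of the DESeq2 Wald test, fitted to all genes, was at most 0.05. In CdxKO against WT 2 of the 10 regulators were called, Hand1 higher and Msx1 lower, where 0.693% of all genes tested were called. In T/BraKO against WT 1 was called, Isl1 lower, where 1.08% of all genes were called. Libraries with the same replicate number deviated together, so each comparison was also fitted with that number as a block. The block added Kdr and Lmo2 as lower in T/BraKO, giving 3 of 8 regulators with an adjusted p where 9.68% of all genes were called. It left the CdxKO count at 2 of 9, where 5.31% of all genes were called. Called regulators were thus few, and different ones in each mutant.

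**Figure D1:**
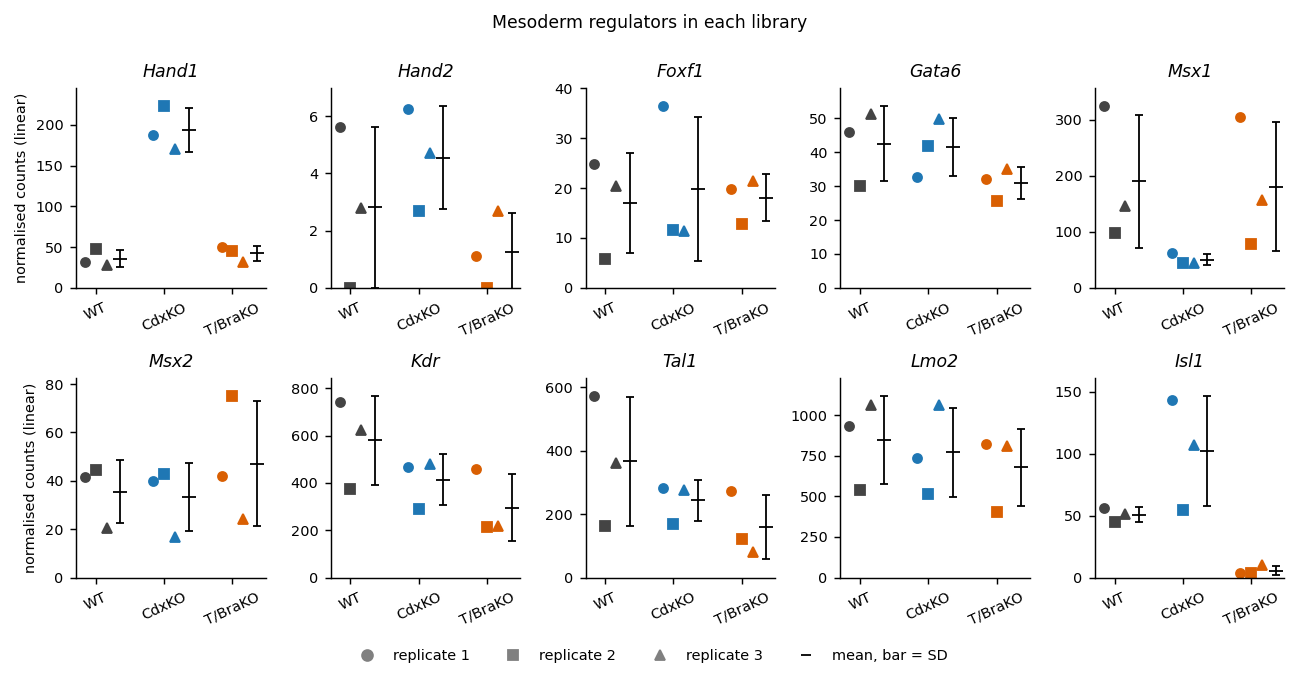
Normalised counts (linear axes from 0) of the 10 regulators in each of the 9 libraries, by genotype, with the replicate number as the symbol and the mean ± SD beside each group (n = 3). Hand1 stands at 170 to 223 in CdxKO against 28 to 47.4 in WT, Isl1 at 3.31 to 9.87 in T/BraKO against 44.5 to 56.3 in WT, and Msx1 at 44.6 to 61.4 in CdxKO against 98.7 to 324 in WT.

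The sequences just before the starts of 4 regulators are shown because Isl1 and Msx1 were called in a mutant and Kdr and Tal1 varied together. Each is the 250 bases before the RefSeq start on GRCm38.p6, written 5′ to 3′ on the strand of the gene, with GATAA (the GATA core), CANNTG (the E-box of bHLH factors) and TTTAT (the core bound by CDX and posterior HOX factors) in capitals on either strand. They lie at chr13:116309689-116309938 (minus strand), chr5:37824586-37824835 (minus), chr5:75978456-75978705 (minus) and chr4:115056176-115056425 (plus, the upstream one of 2 Tal1 starts).
Isl1: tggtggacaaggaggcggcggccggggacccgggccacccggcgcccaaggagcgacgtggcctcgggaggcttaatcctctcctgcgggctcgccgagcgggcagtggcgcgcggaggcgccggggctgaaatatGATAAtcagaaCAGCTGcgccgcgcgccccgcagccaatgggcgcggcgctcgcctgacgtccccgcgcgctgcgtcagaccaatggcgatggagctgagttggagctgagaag
Msx1: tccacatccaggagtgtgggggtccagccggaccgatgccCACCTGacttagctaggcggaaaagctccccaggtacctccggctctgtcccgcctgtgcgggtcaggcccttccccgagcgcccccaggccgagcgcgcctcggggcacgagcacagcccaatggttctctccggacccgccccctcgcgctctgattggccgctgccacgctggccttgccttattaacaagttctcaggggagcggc
Kdr: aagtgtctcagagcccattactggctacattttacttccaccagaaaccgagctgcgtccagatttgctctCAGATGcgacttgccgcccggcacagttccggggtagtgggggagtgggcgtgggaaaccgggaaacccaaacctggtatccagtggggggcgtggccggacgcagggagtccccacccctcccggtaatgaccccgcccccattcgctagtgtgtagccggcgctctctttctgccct
Tal1: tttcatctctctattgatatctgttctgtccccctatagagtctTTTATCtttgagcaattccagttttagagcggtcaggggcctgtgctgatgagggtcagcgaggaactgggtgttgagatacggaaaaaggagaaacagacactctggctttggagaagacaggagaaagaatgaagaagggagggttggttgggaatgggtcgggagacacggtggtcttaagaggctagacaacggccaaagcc

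The Isl1 window held 1 GATA core, 114 to 110 bases before the start, and 1 E-box, 103 to 98 bases before it. The Msx1 and Kdr windows held 1 E-box each, at 210 to 205 and 179 to 174 bases. In the Tal1 window a CDX core, at 206 to 202 bases, overlapped a GATA core of the other strand, at 205 to 201. CTTTG, the core of TCF/LEF sites, was found 3 times in the Tal1 window and in none of the other 3 windows. TCACAC, a T-box core, was in none of the 7 windows found for 6 of the regulators, nor was the forkhead site GTAAACA. The homeobox core of MSX-type factors, TAATTG, was found only before Hand2. Of all 32817 RefSeq windows of this length, the GATA core was in 22.6%, the E-box in 66.2%, the CDX core in 37.3%, the TCF/LEF core in 48.6%, the T-box core in 12.3%, the forkhead site in 3.16% and the MSX-type core in 7.17%. These matches are letters in a window and were not tested for binding.

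Levels of different genes were compared as TPM, the deposited value scaled for transcript length. In WT, Lmo2 led with 40.2 ± 12.4 TPM (SD, n = 3). Kdr (7.49 ± 2.39), Msx1 (7.11 ± 4.48) and Tal1 (6.12 ± 3.42) followed, and their libraries overlapped, so their order is not resolved. Isl1, Hand1, Msx2, Gata6 and Foxf1 had means from 0.5 to 1.44 TPM, each overlapping the next, and Hand2 was last at 0.09 TPM. The order differed between genotypes. In CdxKO, Hand1 stood second at 7.38 ± 1.14 TPM with all libraries above those of Kdr, and Msx1 stood sixth at 1.88 ± 0.355 TPM with all libraries below those of Kdr and Tal1. In T/BraKO, Isl1 stood ninth at 0.153 ± 0.101 TPM with all libraries below those of Foxf1. The 10 genes summed to 43 to 82.4 TPM in WT, 46.4 to 73.3 in CdxKO and 32 to 64.3 in T/BraKO, and Lmo2 alone made 54% to 73.6% of it in any library.

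**Figure D2:**
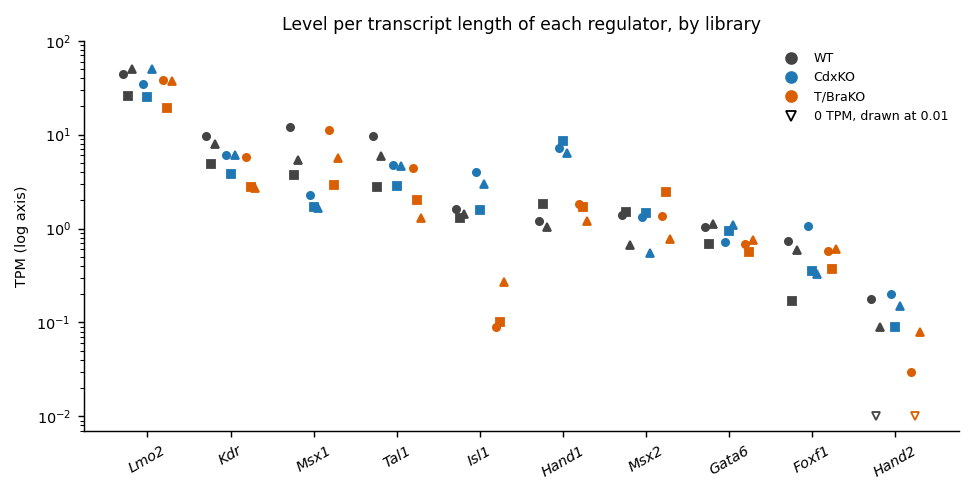
TPM (log axis) of the 10 regulators in each library, ordered by their mean in WT, coloured by genotype, with open triangles for 0 TPM drawn at 0.01. Lmo2 is highest in every library, Hand1 in CdxKO rises to the second place, and Isl1 in T/BraKO drops to between 0.09 and 0.27 TPM.

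Hand1 (chromosome 11, 57828705 to 57832818, minus strand) encodes a bHLH factor of the extraembryonic mesoderm, trophoblast, lateral plate and left heart. It had 31.5, 47.4 and 28 normalised counts in WT replicates 1, 2 and 3, and 188, 223 and 170 in CdxKO. T/BraKO had 49.6, 44.9 and 32.3. Every CdxKO library lay above every other library, and T/BraKO overlapped WT. Hand1 was 5.44-fold higher in CdxKO than in WT (log2 fold change 2.44, SE 0.28, 95% interval 1.89 to 3.00, adjusted p 2.58e-14, DESeq2). Within replicate numbers the log2 ratio was 2.58, 2.24 and 2.61. T/BraKO differed from WT by 0.24 on the log2 scale, an interval of -0.36 to 0.84, and was not called. Hand1 was 4.61-fold higher in CdxKO than in T/BraKO (DESeq2, adjusted p 9.07e-13, log2 fold change 2.20, SE 0.28). As these are bulk RNA values, a change in the share of cells that express a gene and a change in RNA per cell cannot be told apart, here and for the genes that follow.

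Hand1 is also expressed by trophoblast, so the trophoblast markers are given beside it. Their summed level was 20.4 to 27.7 TPM in CdxKO and 20.1 to 28.1 in WT. Of the 12 markers 4 or 5 reached 1 TPM in each library, among them Cdh3 and Eomes. None was called in CdxKO against WT with or without the block, and Tfap2c was called lower in CdxKO than in T/BraKO without it. Prl3d1 and Tpbpa were at 0 TPM in all 9 libraries, and Elf5 was at 0 in all CdxKO and T/BraKO libraries. Among the less abundant markers, Gata3, Krt7 and Prl2c2 averaged 20.8, 35.4 and 2.4 normalised counts in CdxKO and 9.3, 25.1 and 0.686 in WT. Plac1 and Esx1 averaged 8.89 and 10.3 in CdxKO and 7.55 and 9.27 in WT. Ascl2 and Tfap2c went the other way, at 23.1 and 163 in CdxKO and 38.9 and 232 in WT. In T/BraKO the sum was 27.8 to 41.5 TPM, and with the block Eomes and Tfap2c were called higher there. The part of trophoblast cells in the Hand1 values was not tested.

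Hand2 (chromosome 8, 57320983 to 57324633, plus strand), the related factor of the heart and limb, was barely detected. Its raw counts were 5, 0 and 3 in WT, 5, 3 and 5 in CdxKO and 1, 0 and 3 in T/BraKO. The groups overlapped and the values lie around the floor of 3 counts, so no fold is given and a difference was not detectable at this depth. The Hand1 difference in CdxKO therefore has no measurable counterpart at Hand2.

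Foxf1 (chromosome 8, 121084386 to 121088144, plus strand) encodes a forkhead factor of the extraembryonic and splanchnic mesoderm. It measured 24.8, 5.8 and 20.5 normalised counts in the WT replicates, 36.4, 11.6 and 11.3 in the CdxKO replicates and 19.9, 12.8 and 21.5 in those of T/BraKO. All groups overlapped, and replicates of a group differed by up to 4.27-fold. The log2 difference from WT was 0.20 in CdxKO (interval -1.13 to 1.53) and 0.09 in T/BraKO (interval -1.24 to 1.42), neither called. These intervals are wide enough to hold a change of more than 2-fold in either direction. Fendrr, a non-coding RNA of the lateral plate read from the opposite strand 1.28 kb from Foxf1, had at most 3 counts in any library.

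Gata6 (chromosome 18, 11052064 to 11085635, plus strand) encodes a GATA factor of the heart, lateral plate and endoderm. It measured 46.1, 30 and 51.3 normalised counts in the WT replicates, 32.6, 42 and 49.9 in the CdxKO replicates and 32, 25.6 and 35 in those of T/BraKO. The groups overlapped in each comparison. The log2 difference from WT was -0.02 in CdxKO (interval -0.70 to 0.65) and -0.46 in T/BraKO (interval -1.15 to 0.23), neither called. T/BraKO was below WT in 3 of 3 replicate numbers, by 0.53, 0.23 and 0.55 on the log2 scale. As an endoderm factor, Gata6 was read beside the endoderm markers, which summed to 84.9 to 122 TPM in WT, 130 to 174 in CdxKO and 101 to 208 in T/BraKO, most of it from Cldn6. Ttr was at 0 in both mutants and had 1 count in WT. Apoa1 was at 0 in WT and had 3 counts in CdxKO and 2 in T/BraKO. Afp averaged 5.39 normalised counts in CdxKO, 1.76 in WT and 1.51 in T/BraKO. Foxa2, Foxa1 and Sox17 averaged 334, 48.2 and 31 normalised counts in CdxKO and 232, 23.3 and 17.3 in WT, and those of T/BraKO were 106, 13 and 27. Gata4 also averaged more in CdxKO (45.3 against 30.1 in WT). Other markers went the other way: Sox7, Cer1 and Dab2 averaged 26.4, 25.9 and 348 in CdxKO and 45.5, 39.4 and 418 in WT. No endoderm marker was called against WT without the block, and with it Cldn6 was higher in CdxKO and Foxa2 lower in T/BraKO. Between the mutants Foxa1 was called higher in CdxKO without the block, and Foxa2 and Foxa1 with it. The part of endoderm cells in the Gata6 values was not tested.

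Msx1 (chromosome 5, 37820485 to 37824583, minus strand) encodes a homeobox repressor induced by BMP in the streak and lateral plate. It measured 324, 98.7 and 146 normalised counts in the WT replicates, and 61.4, 44.6 and 45.1 in the CdxKO replicates. T/BraKO had 304, 78.8 and 157, a pattern over the replicate numbers much like that of WT. Every CdxKO library lay below every library of the other groups, and within WT replicate 1 was 3.28-fold above replicate 2. Msx1 was 3.77-fold lower in CdxKO than in WT (log2 fold change -1.91, SE 0.52, 95% interval -2.93 to -0.89, adjusted p 0.038, DESeq2). With the block the log2 fold change was -1.74 (SE 0.26, adjusted p 4.74e-09), and within replicate numbers it fell by 2.40, 1.14 and 1.70. The call rested on few libraries without the block: it was lost when WT replicate 1 or 3, any one CdxKO library or T/BraKO replicate 3 was left out, with adjusted p up to 1, and held in 9 of 9 such fits with the block. Without WT replicate 1 the log2 fold change was -1.28, and in the other fits that lost the call it was -2.08 to -1.83. The edgeR quasi-likelihood test did not call it without the block (adjusted p 0.597) and did with it (adjusted p 0.00388). T/BraKO differed from WT by -0.08 on the log2 scale (interval -1.08 to 0.93; with the block -0.09, interval -0.56 to 0.38). Against T/BraKO, Msx1 in CdxKO was 3.58-fold lower (adjusted p 0.0159, DESeq2; edgeR without the block, adjusted p 0.209). That call was lost without CdxKO replicate 2, CdxKO replicate 3 or T/BraKO replicate 1, with adjusted p up to 0.356, and held in 9 of 9 such fits with the block. The log2 fold change was -1.23 without T/BraKO replicate 1 and -1.76 without either of the others.

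Msx2 (chromosome 13, 53466884 to 53473074, minus strand), its paralog, did not follow Msx1. It measured 41.6, 44.5 and 20.5 normalised counts in the WT replicates, 40.1, 42.9 and 16.9 in the CdxKO replicates and 41.9, 75.1 and 24.2 in those of T/BraKO. The groups overlapped, and replicate 3 was the lowest of each. The log2 difference from WT was -0.09 in CdxKO (interval -1.16 to 0.97) and 0.41 in T/BraKO (interval -0.65 to 1.46), neither called. Whether the CdxKO difference of Msx1 exceeds that of Msx2 was not tested.

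Kdr (chromosome 5, 75932827 to 75978458, minus strand) encodes the VEGF receptor of blood and endothelial progenitors. It measured 741, 374 and 625 normalised counts in the WT replicates, 468, 288 and 482 in the CdxKO replicates and 458, 214 and 216 in those of T/BraKO. The groups overlapped, but each T/BraKO library lay below the WT library of its number, by 0.70, 0.80 and 1.53 on the log2 scale. Without the block the lower value in T/BraKO was not called (log2 fold change -0.97, SE 0.35, adjusted p 0.304, DESeq2). With it Kdr was called 1.98-fold lower (log2 fold change -0.99, SE 0.17, 95% interval -1.32 to -0.66, adjusted p 2.89e-07). In CdxKO the blocked log2 difference from WT was -0.46 (interval -0.79 to -0.14, adjusted p 0.0792), lower in 3 of 3 replicate numbers and not called. CdxKO was above T/BraKO by 0.52 on the log2 scale with the block (adjusted p 0.0179) and was not called above it without (adjusted p 0.753). The edgeR fit with the block did not call this difference (adjusted p 0.064), and leaving out a library with the block kept the call in 4 of 9 fits, with adjusted p up to 0.425. The blocked difference of T/BraKO from WT kept its call in 9 of 9.

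Tal1 (chromosome 4, 115056426 to 115071755, plus strand) encodes the bHLH factor that starts the blood programme. It measured 573, 164 and 361 normalised counts in the WT replicates, 282, 169 and 277 in the CdxKO replicates and 274, 123 and 80.7 in those of T/BraKO. WT replicate 1 was the highest library, and WT replicate 2 lay below every CdxKO library and within the range of T/BraKO. The log2 difference of T/BraKO from WT was -1.20 (SE 0.49, interval -2.16 to -0.25, adjusted p 0.536, DESeq2), and -1.17 with the block (adjusted p 0.0604), so DESeq2 called it in neither fit. edgeR with the block called it lower (log2 fold change -1.19, adjusted p 0.0322). T/BraKO was below WT in 3 of 3 replicate numbers, by 1.07, 0.42 and 2.16. In CdxKO the log2 difference from WT was -0.59 (interval -1.55 to 0.36).

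Lmo2 (chromosome 2, 103957986 to 103981878, plus strand) encodes the LIM-only partner of TAL1. It measured 937, 541 and 1063 normalised counts in the WT replicates, 735, 517 and 1061 in the CdxKO replicates and 821, 406 and 811 in those of T/BraKO. The groups overlapped almost completely, and replicate 2 was the lowest of each. With the block Lmo2 was called 1.25-fold lower in T/BraKO (blocked log2 fold change -0.33, SE 0.11, interval -0.55 to -0.11, adjusted p 0.0408, DESeq2), the smallest called difference among the regulators. Without the block the adjusted p was 1, and the edgeR fit with the block gave 0.062. The blocked call held in only 2 of 9 fits that left out a library, those without CdxKO replicate 1 or T/BraKO replicate 1, with adjusted p up to 0.401 and log2 fold changes from -0.46 to -0.26. CdxKO differed from WT by -0.13 on the log2 scale with the block (interval -0.35 to 0.09). The 3 blood and endothelial regulators were thus each below WT in 3 of 3 T/BraKO replicate numbers, by differences whose order was not tested. Kdr and Lmo2 were also below WT in 3 of 3 CdxKO replicate numbers, Lmo2 by as little as 1061 against 1063. The share of all genes below WT in 3 of 3 replicate numbers is not given, so these counts are a description only.

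Isl1 (chromosome 13, 116298281 to 116309689, minus strand) encodes a LIM homeobox factor of cardiac progenitors, hindlimb field and motor neurons. It measured 56.3, 44.5 and 51.3 normalised counts in the WT replicates, 143, 54.5 and 107 in the CdxKO replicates and 3.31, 3.66 and 9.87 in those of T/BraKO. Every T/BraKO library lay far below every other library, and CdxKO overlapped WT through replicate 2. Isl1 was 8.86-fold lower in T/BraKO than in WT (log2 fold change -3.15, SE 0.54, 95% interval -4.21 to -2.08, adjusted p 2.45e-06, DESeq2). The T/BraKO values rest on raw counts of 3, 4 and 11. Without T/BraKO replicate 3, the highest of them, the log2 fold change was -3.86, and the smallest change over such fits was -2.90, with the call kept in 9 of 9. In CdxKO the log2 difference was 1.00 (SE 0.43, interval 0.16 to 1.84, adjusted p 0.651), higher in 3 of 3 replicate numbers by 1.35, 0.29 and 1.06, and it was called by neither DESeq2 fit (with the block, adjusted p 0.136). CdxKO exceeded T/BraKO by 17.7-fold (log2 fold change 4.15, SE 0.54, adjusted p 4.28e-12), and the log2 fold change was 4.85 without T/BraKO replicate 3. Isl1 is also a neuronal gene, and the 10 neuron markers summed to 228 to 240 TPM in WT, 249 to 294 in CdxKO and 204 to 244 in T/BraKO, most of it from Stmn2. Without the block no neuron marker was called in either mutant against WT, and Map2 was called higher in CdxKO than in T/BraKO. With it Stmn2 was called higher in CdxKO (5221 normalised counts on average, against 4342 in WT) and Elavl3 higher in T/BraKO (219 against 148). The part of neurons in the Isl1 values was not tested.

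**Figure D3:**
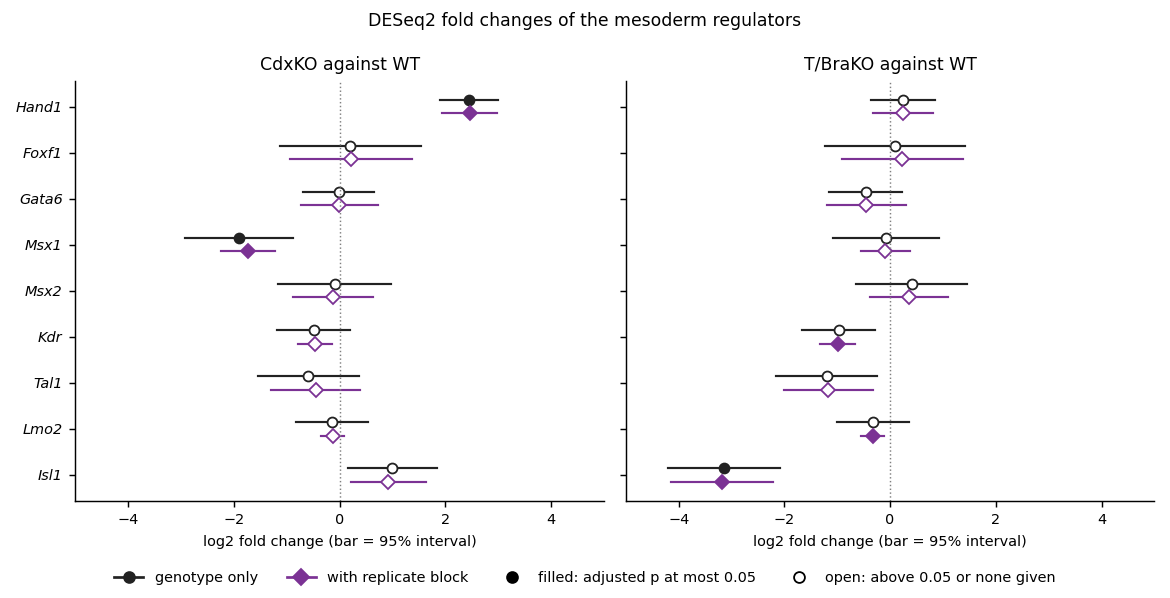
DESeq2 log2 fold changes with 95% intervals for 9 regulators (Hand2, near the floor, is left out), without the replicate block (circles) and with it (diamonds), filled where the adjusted p is at most 0.05. Hand1 and Msx1 are filled in CdxKO in both fits, Isl1 in T/BraKO in both, and Kdr and Lmo2 in T/BraKO only with the block.

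The direct comparison of the mutants, which shares its libraries with the comparisons above, called 3 of 10 regulators, where 3.48% of all genes tested were called. Hand1 and Isl1 were higher in CdxKO and Msx1 lower. With the block Kdr was added, giving 4 of 9, where 14.6% of all genes were called. Without regard to a model, groups of at least 10 normalised counts on average were fully separated for 2 of 9 regulators in CdxKO against WT (9.90% of all such genes), 1 of 9 in T/BraKO against WT (10.3%) and 3 of 9 between the mutants (15.4%). Each of these shares rests on 1 to 3 genes.

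**Figure D4:**
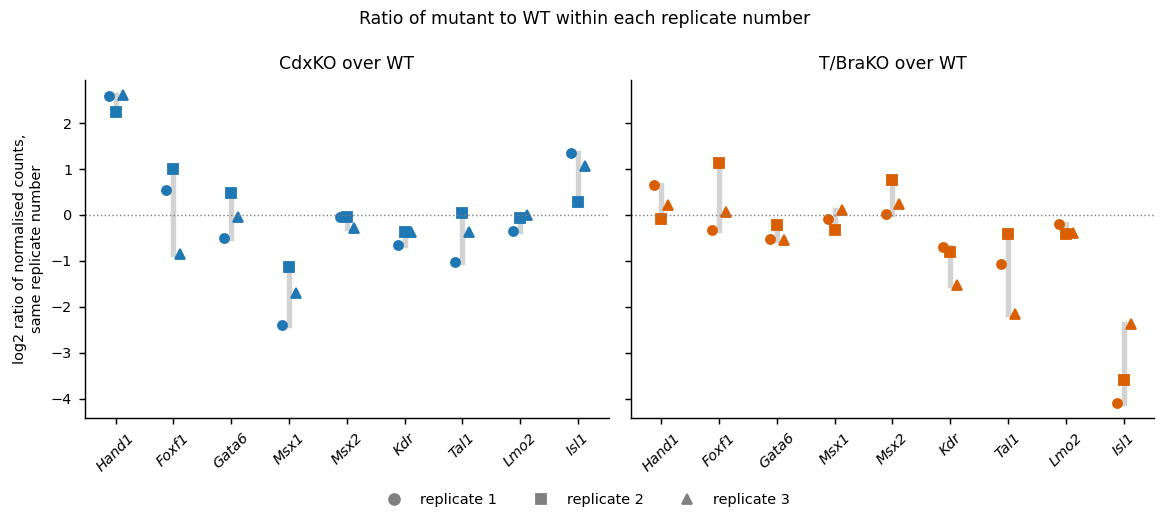
log2 ratio of normalised counts of each mutant over the WT library with the same replicate number, for 9 regulators (grey bars span the 3 ratios). In CdxKO all 3 ratios lie above 0 for Hand1 and Isl1 and below 0 for Msx1, Msx2, Kdr and Lmo2. In T/BraKO they lie above 0 for Msx2 and below 0 for Kdr, Tal1, Lmo2, Gata6 and Isl1. Some ratios are close to 0, as for Msx2 in replicate 1 (-0.05 in CdxKO and 0.01 in T/BraKO). The share of all genes with 3 ratios of the same sign is not given.

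The spread among replicates had a structure shared by several regulators. Replicate 2 was the lowest library of all 3 genotypes for Hand2, Msx1, Kdr and Lmo2, and replicate 3 was the lowest of all 3 for Hand1 and Msx2. Within WT the highest library exceeded the lowest by 1.98-fold for Kdr, 3.48-fold for Tal1 and 1.97-fold for Lmo2, but by only 1.26-fold for Isl1. The genes most like a regulator over the 9 libraries were found by the Pearson correlation of log2(normalised count + 1) among 12315 other genes with a mean of at least 50, and these values are a description over 9 points that share genotype, replicate number and depth. Kdr and Tal1 were each other's nearest gene (r of 0.965). Fli1, an ETS factor of blood and endothelium, was next to Tal1 (0.961), and Ado and Mmp2 were next to Kdr (0.929 and 0.912). For Hand1 the nearest were Rflnb, Tmem37 and Jup (0.968, 0.959 and 0.957), for Isl1 Alox15, Psmb8 and Tnfrsf1a (0.988, 0.988 and 0.983), for Msx1 Dnmt1, D630045J12Rik and Tbc1d19 (0.974, 0.972 and 0.97), and for Lmo2 Thap11, Tro and Mapk10 (0.97, 0.957 and 0.957). Alox15, a lipoxygenase, averaged 246 normalised counts in T/BraKO, against 2154 in WT and 3378 in CdxKO. Lmo2 itself was among the 3 nearest of neither Kdr nor Tal1.

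Other genes of the lateral plate and cardiac programme were mostly not called. Of 25 listed genes none was called against WT without the block, and Bmp4 was called higher in CdxKO than in T/BraKO. The median log2 fold change from WT of the listed genes with at least 10 normalised counts was 0.40 in CdxKO and -0.35 in T/BraKO, against 0.00 and 0.01 over all genes. Genes called against WT only with the block are named here after their values were seen. Bmp4 was among them in each mutant, raised in CdxKO but reduced in T/BraKO. Bmp4, the ligand that drives these fates, measured 191, 222 and 130 normalised counts in the WT replicates, 302, 289 and 217 in the CdxKO replicates and 121, 169 and 83.4 in those of T/BraKO. The blocked log2 fold change of Bmp4 was 0.59 (adjusted p 0.024, DESeq2) in CdxKO and -0.55 (adjusted p 0.0395) in T/BraKO. The cardiac factors Nkx2-5 and Tbx5 had at most 5.64 normalised counts in any library.

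Among 30 genes of blood and endothelium 1 was called against WT without the block, Kit, the stem cell factor receptor that lies 276 kb from Kdr. Between the mutants Etv2 was called higher in CdxKO and Kit lower without the block. Kit measured 1377, 1518 and 1405 normalised counts in the WT replicates, 900, 1171 and 921 in the CdxKO replicates and 1827, 1743 and 1680 in those of T/BraKO. It was lower in CdxKO than in WT (DESeq2, adjusted p 0.00667, log2 fold change -0.52) and, with the block, higher in T/BraKO (0.29, adjusted p 0.0167), the opposite direction to Kdr. With the block 3 others were lower in T/BraKO, where 9.68% of all genes were called in either direction. Etv2, which switches on the endothelial programme upstream of Tal1, averaged 539 ± 104 in WT and 323 ± 60.1 in T/BraKO (blocked log2 fold change -0.72, adjusted p 9.28e-04). Fli1 and Flt4 were the others (-1.48 and -0.64). Runx1, a factor of definitive blood, was higher in CdxKO with the block (118 ± 32.3 in WT and 222 ± 52.3 in CdxKO, adjusted p 2.04e-04). The embryonic globins Hbb-bh1 and Hba-x had no more than 10.7 normalised counts in any library, and their WT libraries had at most 2 counts. The list medians were -0.14 in CdxKO and -0.28 in T/BraKO.

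The extraembryonic mesoderm list of 16 genes had 3 calls in CdxKO and 1 in T/BraKO against WT without the block. Of all genes 0.693% and 1.08% were called there. Cdkn1c, an imprinted inhibitor of the cell cycle, was reduced in CdxKO to 33.5 ± 4.18 normalised counts from 1198 ± 293 (log2 fold change -5.16, adjusted p 1.83e-87, DESeq2). The imprinted H19 rose from 34.7 ± 27.7 to 540 ± 308 (log2 fold change 3.96, adjusted p 0.00475) and the imprinted Plagl1 from 565 ± 78.1 to 947 ± 84.7 (0.74, adjusted p 1.24e-04). These 3 CdxKO calls were thus all in imprinted genes and went in both directions, and the block added Bmp4 as higher. Tbx4, the T-box factor of the allantois, was at 27.3 ± 12.5 in WT and 25.4 ± 10.3 in CdxKO. Postn, a matrix gene, had 27, 50.3 and 14.9 in WT and 5.52, 5.5 and 4.48 in T/BraKO (log2 fold change -2.58, adjusted p 0.0491). Postn is also expressed by fibroblasts, and the 12 fibroblast or feeder markers summed to 46.6 to 78.4 TPM in WT, 54.9 to 95.4 in CdxKO and 43.6 to 67.6 in T/BraKO, with none at 0 in a whole group. Without the block Pdgfrb was also called lower in T/BraKO. With the block the fibroblast collagens Col1a1 and Col1a2 were called lower in T/BraKO and higher in CdxKO, and Thy1 lower in CdxKO. Col1a1 averaged 562 normalised counts in T/BraKO, 1120 in WT and 2113 in CdxKO. The part of feeder fibroblasts in these values was not tested. With the block 6 of the 11 genes of the extraembryonic list with an adjusted p were called in T/BraKO, where 9.68% of all genes were called. H19 and Plagl1 were higher and Bmp4, Pmp22, Postn and Igf2 lower. The list medians were 0.29 in CdxKO and -0.23 in T/BraKO.

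Of 23 genes of the BMP pathway and response, only the antagonist Nog was called against WT without the block. Between the mutants Bmp4, Bmp5 and Nog were called higher in CdxKO without the block. Nog measured 138, 210 and 71.8 normalised counts in the WT replicates, 395, 313 and 232 in the CdxKO replicates and 48.5, 62.3 and 26.9 in those of T/BraKO, with no overlap between the groups. Nog was lower in T/BraKO (DESeq2, adjusted p 0.0154, log2 fold change -1.61, SE 0.42), and its higher value in CdxKO was called only with the block (1.25, adjusted p 2.69e-06). With the block Bmp4, Bmp7 and Smad7 were also higher in CdxKO, and Bmp4 also lower in T/BraKO. The blocked calls were thus 4 of 21 listed genes with an adjusted p in CdxKO and 2 of 18 in T/BraKO. Of all genes 5.31% and 9.68% were called there with the block, and 0.693% and 1.08% without it. The list medians were 0.23 in CdxKO and -0.02 in T/BraKO. None of the 18 bHLH, LIM and forkhead partners was called in either mutant against WT with or without the block. Among them the TAL1 and LMO2 partners Ldb1, Tcf3 and Tcf12 averaged 3038, 4647 and 4469 normalised counts in WT, and 3189, 5203 and 4774 in T/BraKO.

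**Figure D5:**
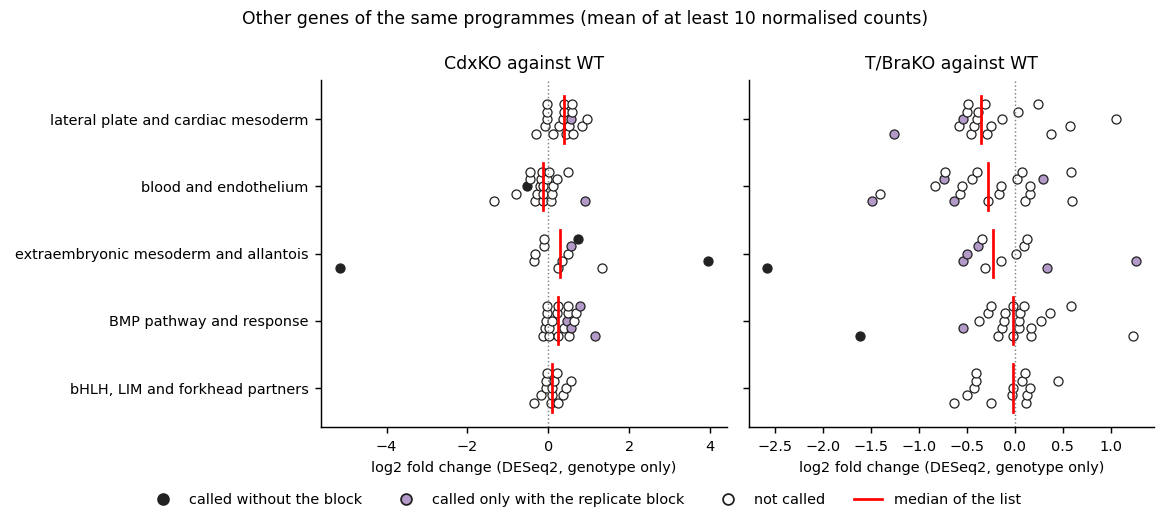
DESeq2 log2 fold changes, without the block, of the listed genes with a mean of at least 10 normalised counts, 1 point a gene and 1 row a list, with the list median as a red line (the horizontal scales of the panels differ). Filled points were called without the block and tinted ones only with it. Few points are filled, and the medians of the lateral plate list are 0.40 in CdxKO and -0.35 in T/BraKO.

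For comparison, the paraxial mesoderm list held more calls in T/BraKO than in CdxKO, and the caudal epiblast list held 5 in each mutant. The caudal epiblast counts, with and without the block, include the mutated genes themselves. These are the 3 Cdx genes in CdxKO and T in T/BraKO. Against WT, 4 of 12 paraxial mesoderm genes were lower in T/BraKO and 1, Pcdh8, was higher, and none was called in CdxKO. Msgn1 averaged 154 ± 57.4 normalised counts in WT and 3.21 ± 1.33 in T/BraKO (log2 fold change -5.58, adjusted p 8.59e-12, DESeq2), and Tbx6 changed by -3.41, Dll1 by -1.05 and Rspo3 by -1.95 on the log2 scale. Of 13 caudal epiblast genes 5 were lower in CdxKO, the 3 Cdx genes with Wnt3a and Wnt8a (log2 fold changes of -1.42 and -0.77 for the last named). In T/BraKO 3 were lower, T, Wnt3a and Fgf8 (-1.18 for Wnt3a and -1.56 for Fgf8), and Fgf17 and Sp5 were higher (0.78 and 0.70). With the block the paraxial list had 1 gene higher and 6 lower in T/BraKO and 1 higher and 1 lower in CdxKO. The caudal epiblast list then had 6 higher and 3 lower in T/BraKO and 7 lower in CdxKO. Of all genes 1.08% were called in T/BraKO without the block and 9.68% with it, and 0.693% and 5.31% in CdxKO. The lists differ in size and were not tested against each other.

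Of the nearest measured genes of the called regulators, only Kit was called in a comparison with WT that also called the regulator beside it: with the block it was higher in T/BraKO, where Kdr was lower. Sap30l and Larp1, on either side of Hand1 at 18.5 and 176 kb, differed from WT by 0.04 and 0.03 on the log2 scale in CdxKO. Stx18, 214 kb from Msx1, differed by 0.00 in CdxKO. Isl1 lies alone in a wide interval, with Itga1 1200 kb and Parp8 545 kb away, and in T/BraKO they differed from WT by 0.33 and -0.13. Srd5a3, 162 kb from Kdr on the side away from Kit, differed by 0.02 in T/BraKO. Neither fit called any of these 6 genes, from Sap30l to Srd5a3, in the comparison given.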

How the data were processed

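Poly(A) RNA of 9 cultures was sequenced by the authors as strand-specific single-end reads. Per the submitters' processing notes and the methods, the authors used cutadapt 1.16, STAR 2.5.2a and RSEM 1.3.0 on mm10, and deposited expected counts (RSEM estimates, 3.75% to 4.00% of them fractional) and TPM per gene. Groups and replicate numbers came from the library titles, which call the replicates biological. The methods state in general that statistical analyses rest on independent experiments. The p-values weigh each difference against the spread between these cultures. As the labels name no clone, that spread is not known to include differences between separate lines of a genotype.

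The deposited expected counts were rounded and tested in R 4.3.3 with the Wald test of DESeq2 1.42.0 (genotype as the only term, all 9 libraries, default size factors, unshrunken log2 fold changes, adjusted p of at most 0.05 over all genes). The deposited TPM values were used for levels between genes and were not tested. Alternatives were the replicate block, edgeR 4.0.16 with and without it, TMM factors, only genes with 10 or more counts in 3 or more libraries, each pair of groups fitted alone (6 libraries), thresholds of 0.01 on the adjusted p or 1 on the absolute log2 fold change, and leaving out each library. Leaving out each library with the block was added after seeing the data. Over 12316 genes, deviations from group means correlated at 0.532 to 0.814 (mean 0.703) in the 9 same-numbered pairs of libraries. The numbers were therefore taken to pair the samples. The other 18 pairs averaged -0.34, a negative value that largely follows from centring each group on its mean and is no separate evidence. The fits were tested on simulated counts.

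The regulators, gene lists and tests were chosen with earlier results of these data known. Named were the 10 regulators, T and the Cdx genes, at most 4 genes a list and comparison by adjusted p, the 3 genes most correlated with a regulator of at least 50 normalised counts, and the nearest genes. Other genes named (such as Pcdh8, Tbx4, Runx1, the globins and those called only with the block) were chosen after their values were seen. Some results for single genes are not given. Marker lists covered fibroblast or feeder, trophoblast, endoderm, neuron and naive pluripotency genes. The last summed to 52.2 to 154 TPM in WT, 82 to 199 in CdxKO and 70.5 to 142 in T/BraKO, with Klf4 called higher in CdxKO. Coordinates are from GENCODE M21 on GRCm38 (mm10), counted from 1, and promoter windows from RefSeq, of which 6 regulators had one. Hand1, Foxf1, Gata6 and Lmo2 had none. Libraries of 25124337 to 34705355 counts have a detection floor, set at 3 counts, of 0.0864 to 0.119 CPM, which covers counting error only.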

Additional observations from a re-analysis of the deposited data

How the results depend on the processing

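The number of regulators called in CdxKO against WT was 2, and 1 (Hand1) under edgeR, which called 0.110% of all genes, and at an adjusted p of at most 0.01. It ranged from 1 to 2 when a library was left out without the block and from 2 to 3 with it. In T/BraKO against WT it was 1, and 3 with the replicate block (Kdr, Lmo2, Isl1) and with edgeR and the replicate block (Kdr, Tal1, Isl1; 9.50% of all genes). Leaving out a library gave 1 to 3 without the block (3, with Kdr and Tal1, without T/BraKO replicate 1) and 2 to 4 with it (4 without CdxKO replicate 1). Between the mutants it was 3, ranged from 2 to 3 without a library and from 3 to 5 with the block (5 without CdxKO replicate 1). Hand1 and Isl1 kept their calls in each of these fits. TMM factors, the low-count filter and the fit to the 6 libraries compared changed no call among the regulators, and TMM moved the median of all genes by less than 0.01. The replicate block changed no other call of a regulator than those given in the results. Single values that changed sign had no call: Foxf1 in CdxKO against T/BraKO was -0.02 with the block. Without single libraries, log2 differences from WT ranged from -0.57 to 0.56 for Foxf1 in CdxKO and -0.32 to 0.45 in T/BraKO, -0.22 to 0.14 for Gata6, -0.37 to 0.23 for Msx2 and -0.44 to 0.09 for Lmo2 in CdxKO, and -0.68 to 0.55 for Msx1 and -0.11 to 0.72 for Msx2 in T/BraKO. Between the mutants they ranged from -0.66 to 0.39 for Foxf1, -0.82 to 0.01 for Msx2 and -0.12 to 0.41 for Lmo2. With the block as well, the values that changed sign were -0.17 and -0.08 for Foxf1, 0.13, 0.03 and 0.19 for Gata6 in CdxKO, -0.06 for Foxf1 and 0.07 and 0.11 for Msx1 in T/BraKO, and -0.39, -0.38, -0.14 and -0.07 for Foxf1 between the mutants. The full ranges were -0.17 to 0.66 for Foxf1, -0.20 to 0.19 for Gata6 and -0.22 to 0.00 for Lmo2 in CdxKO, -0.06 to 0.59 for Foxf1 and -0.25 to 0.11 for Msx1 in T/BraKO, and -0.39 to 0.41 for Foxf1 between the mutants. The cause of these shifts was not tested. At these depths Hand2 could not be compared, and Isl1 in T/BraKO rests on 3 to 11 counts a library.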
